A study of Mus musculus with 16 samples.

Results

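The genes that encode the receptors for colony-stimulating factors and related growth factors were followed in myeloid-derived suppressor cells (MDSCs) sorted from tumor-bearing mice. The set was chosen by name and holds *Csf1r*, *Csf2ra*, *Csf2rb*, *Csf2rb2*, *Csf3r*, *Flt3*, *Kit* and *Il3ra*, which are 8 of the 24421 gene symbols counted, and all 8 were listed for every library, some of them with 0 counts. mRNA was sequenced from the spleens of 8 C57BL/6 mice carrying B16.F10 melanoma, a mouse melanoma line implanted under the skin of the back. The 4 groups, of 4 libraries each, were M-MDSCs of wild-type (WT) mice, M-MDSCs of Nlrp3-/- mice, G-MDSCs of WT mice and G-MDSCs of Nlrp3-/- mice. Each library came from 1 mouse, both subsets of every mouse were sequenced, and a replicate number marks the same mouse in both subsets of a genotype but different mice in WT and Nlrp3-/-. M-MDSCs are the monocytic subset, sorted as CD11b high Ly6C+ Ly6G- cells, and G-MDSCs are the granulocytic subset, sorted as CD11b high Ly6C- Ly6G+ cells. In the Nlrp3-/- mice an EGFP cassette interrupts exon 2 of *Nlrp3* in every cell of the body, not in the sorted cells alone, and all 4 groups came from mice with tumors.

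These receptors guide the production and survival of myeloid cells. CSF1R, the receptor tyrosine kinase for M-CSF and IL-34, is the defining receptor of monocytes and macrophages, and CSF3R, the receptor for G-CSF, is that of the neutrophil lineage. GM-CSF is bound by the CSF2RA alpha chain, which signals through the common beta chain CSF2RB, while the mouse has a further beta chain, CSF2RB2, that works with the IL-3 alpha chain IL3RA, and FLT3 and KIT are receptor tyrosine kinases best known on progenitors, dendritic cells and mast cells.

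Libraries held 2295967 to 6079866 counts. On these totals 3 counts, taken as a floor, correspond to 0.493 to 1.31 CPM, the counts scaled to a common library total. Smaller amounts are still printed where a library held them. All levels below are CPM scaled by TMM factors over the 16 libraries, while fold changes come from fits of the 8 libraries compared. Those factors were 1.20 to 1.46 in M-MDSCs and 0.722 to 0.804 in G-MDSCs. On the scaled levels the floor therefore lies lower in M-MDSCs and higher in G-MDSCs. *Nlrp3* in M-MDSCs was 40.6 to 88.7 CPM with the intact gene and 0.513 to 1.87 CPM with the cassette, and in G-MDSCs it was 251 to 330.3 CPM and 5.50 to 13.6 CPM, so the libraries match their genotype labels. The summed CPM of 8 monocyte markers was 4633 to 7196 in M-MDSCs and 410 to 855 in G-MDSCs, and that of 9 neutrophil markers was 113733 to 174538 in G-MDSCs. In M-MDSCs the neutrophil sum was 1413 to 2532, apart from WT replicate 2 with 8709, which also had the highest sums of 5 promyelocyte and 8 proliferation markers among the M-MDSC libraries (305 and 616). *Ly6g*, the marker of the gate, is not used here.

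The sequences before the first annotated base of 3 of the genes are given because *Csf3r* and *Flt3* differed most between the subsets, in opposite directions, and *Csf2ra* was the member called between genotypes in M-MDSCs. They were taken from RefSeq promoter windows on GRCm38.p6, which held 6 of the 8 members, were cut at the first base of the gene in GENCODE or RefSeq, and are written 5′ to 3′ along the gene. They cover chr4:126024409-126024549 on the plus strand (*Csf3r*), chr5:147400490-147400739 on the minus strand (*Flt3*) and chr19:61228430-61228668 on the minus strand (*Csf2ra*). Capitals mark the ETS core GGAA on either strand, the letters shared by sites of PU.1 and other ETS factors.
Csf3r: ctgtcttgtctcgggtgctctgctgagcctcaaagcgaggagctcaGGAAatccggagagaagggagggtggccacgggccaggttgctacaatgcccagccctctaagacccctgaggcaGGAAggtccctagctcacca
Flt3: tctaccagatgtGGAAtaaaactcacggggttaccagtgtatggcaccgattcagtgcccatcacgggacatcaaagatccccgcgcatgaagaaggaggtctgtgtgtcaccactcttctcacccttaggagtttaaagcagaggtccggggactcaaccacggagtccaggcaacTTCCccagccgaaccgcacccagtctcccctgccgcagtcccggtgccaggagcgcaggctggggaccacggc
Csf2ra: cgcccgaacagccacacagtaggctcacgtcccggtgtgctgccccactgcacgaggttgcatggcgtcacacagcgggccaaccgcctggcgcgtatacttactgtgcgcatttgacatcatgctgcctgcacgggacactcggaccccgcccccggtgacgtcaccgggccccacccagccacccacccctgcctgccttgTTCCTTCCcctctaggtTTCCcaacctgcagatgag
The *Csf3r* stretch of 141 bases held 2 such matches, that of *Flt3* 2 in 250 bases and that of *Csf2ra* 3 in 239 bases. The same letters are found in 79.6%, 93.4% and 92.6% of all RefSeq promoters over stretches of those lengths, so most promoters hold one. The C/EBP letters TTGCNNAA and the RUNX letters TGTGGT were absent from all 3 stretches on both strands, and occur in 5.95% to 9.56% and 8.27% to 14.05% of promoters.

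**Figure D1:**
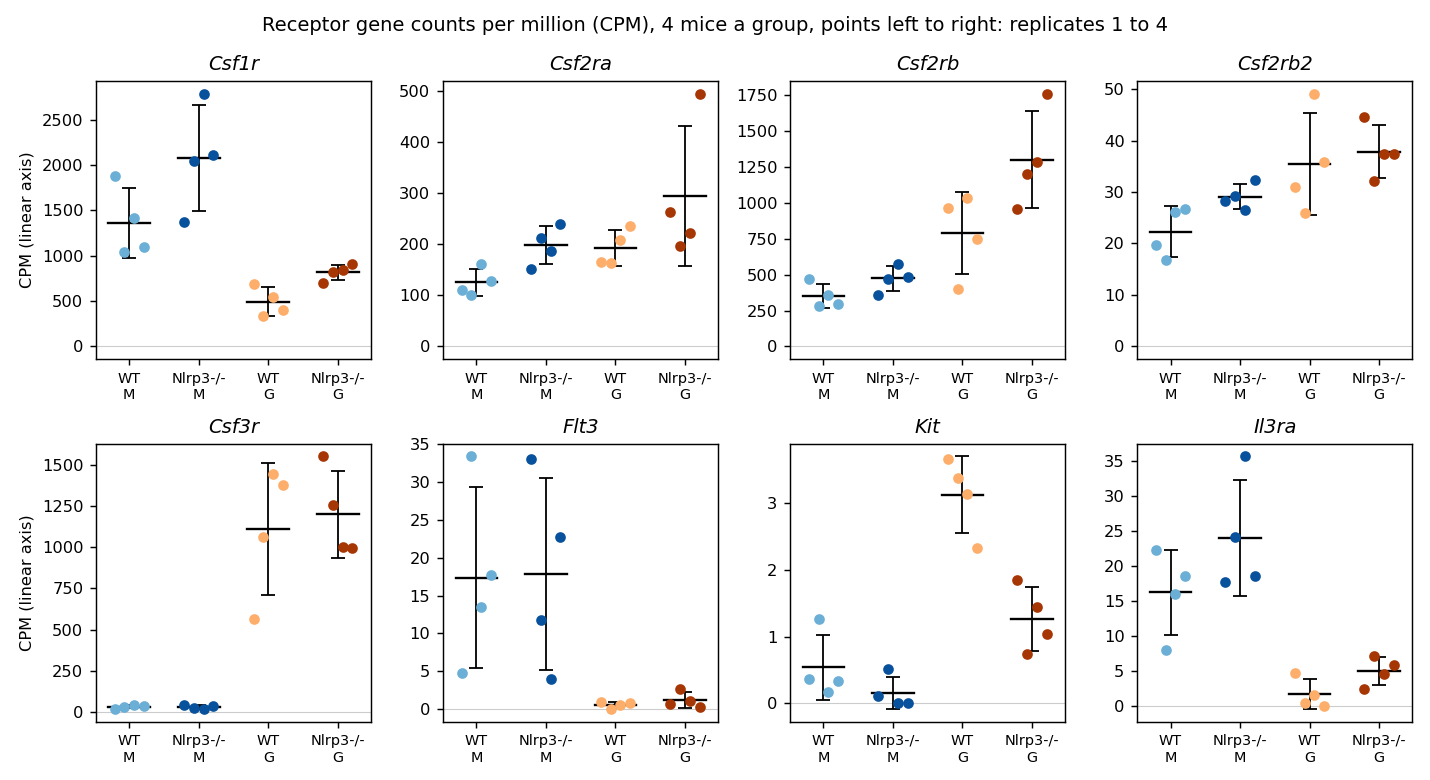
Scaled counts (CPM, linear axes that differ between panels) of the 8 receptor genes in each of the 16 libraries, with the mean (line) and SD (bar) of the 4 mice of a group. *Csf3r* stands at 562 to 1553 CPM in G-MDSCs against 16.1 to 41 in M-MDSCs, *Csf1r*, *Flt3* and *Il3ra* are higher in M-MDSCs, and the Nlrp3-/- groups of *Csf1r* lie above WT in G-MDSCs and overlap it in M-MDSCs.

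The M-CSF receptor gene *Csf1r*, on chromosome 18 (mm10, 61100598 to 61132149, plus strand), was higher in M-MDSCs than in G-MDSCs of both genotypes and was called higher in Nlrp3-/- than in WT G-MDSCs. In M-MDSCs its levels were 1879.5, 1044, 1417 and 1100.1 CPM in WT replicates 1 to 4, and 1369.6, 2043, 2787 and 2111 CPM in Nlrp3-/- replicates 1 to 4. In G-MDSCs they were 691, 339, 541 and 406 CPM in WT and 699, 816, 839.8 and 908 CPM in Nlrp3-/-. The genotypes overlapped in M-MDSCs, where WT replicate 1 lay above Nlrp3-/- replicate 1, whereas in G-MDSCs all 4 Nlrp3-/- libraries lay above all 4 WT libraries, by the narrow margin of 699 against 691 CPM. The log2 fold change of Nlrp3-/- against WT was 0.63 (SE 0.23, edgeR FDR = 0.0989) in M-MDSCs and 0.64 (SE 0.20, edgeR FDR = 0.0388) in G-MDSCs, where FDR is the Benjamini-Hochberg adjusted p of edgeR's quasi-likelihood test over all genes tested. The difference between these effects was not significant (edgeR FDR = 0.992 for the interaction of genotype and subset). The G-MDSC call was lost when the replicate number was used as a block (edgeR FDR = 0.0835), with a correction for GC content and length (log2 fold change 0.52, edgeR FDR = 0.0842), and without any 1 of WT replicate 2, WT replicate 4 or Nlrp3-/- replicates 2, 3 and 4 (edgeR FDR 0.0831 to 0.105). In M-MDSCs, *Csf1r* passed the test without WT replicate 1 (0.84, edgeR FDR = 0.0429) or without Nlrp3-/- replicate 1 (0.75, edgeR FDR = 0.0380).

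Markers of macrophages, cells that express *Csf1r* strongly, moved with the genotype in the same libraries. In M-MDSCs the summed CPM of 9 such markers was 144 to 163 for WT and 282 to 402 for Nlrp3-/- libraries, in G-MDSCs the corresponding sums were 143 to 275 and 464 to 667, and the genotypes did not overlap in either subset. Of the 9, 8 were tested in each subset, 6 were called higher in Nlrp3-/- M-MDSCs and 7 in Nlrp3-/- G-MDSCs, and none was called lower. *C1qa*, a complement gene of tissue macrophages, was 7.10 CPM ± 0.93 in WT and 38.1 CPM ± 6.4 in Nlrp3-/- M-MDSCs, and 28.6 CPM ± 20.9 in WT and 90.1 CPM ± 14.4 in Nlrp3-/- G-MDSCs (SD, n = 4). *Mertk* was near 0 in every group, with 0 counts in all WT M-MDSC libraries and at most 4 counts in any library. In G-MDSCs, WT replicate 1 was the highest WT library and WT replicate 2 the lowest in both *Csf1r* (691 and 339 CPM) and the macrophage sum (275 and 143 CPM), and Nlrp3-/- replicate 4 was the highest of its group in both (908 and 667 CPM). Among Nlrp3-/- G-MDSCs the lowest library differed, with replicate 1 for *Csf1r* (699 CPM, sum 571 CPM) and replicate 3 for the sum (464 CPM, *Csf1r* 839.8 CPM). In M-MDSCs, WT replicate 2 was lowest in both. The highest WT M-MDSC library was replicate 1 for *Csf1r* (1879.5 CPM) and replicate 3 for the sum (163 CPM). Nlrp3-/- replicate 3 of the M-MDSCs had the highest *Csf1r* and the lowest sum of its group. The sum of 8 proliferation markers moved the other way, with 209 to 616 CPM in M-MDSCs of WT mice against 102 to 181 CPM without *Nlrp3* and, with overlap, 168 to 511 CPM against 81.1 to 242 CPM in G-MDSCs, and 2 of the 8 were called lower in each subset. The sum of 5 NK cell markers, of which *Gzma* made up most, was 29.6 to 67.0 CPM against 87.8 to 131 CPM in M-MDSCs and 23.99 to 42.4 CPM against 52.3 to 86.7 CPM in G-MDSCs, with 1 marker called higher in each. The part of these markers in the *Csf1r* difference was not tested, and in sorted bulk samples fewer cells of a type and less RNA per cell cannot be told apart.

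**Figure D2:**
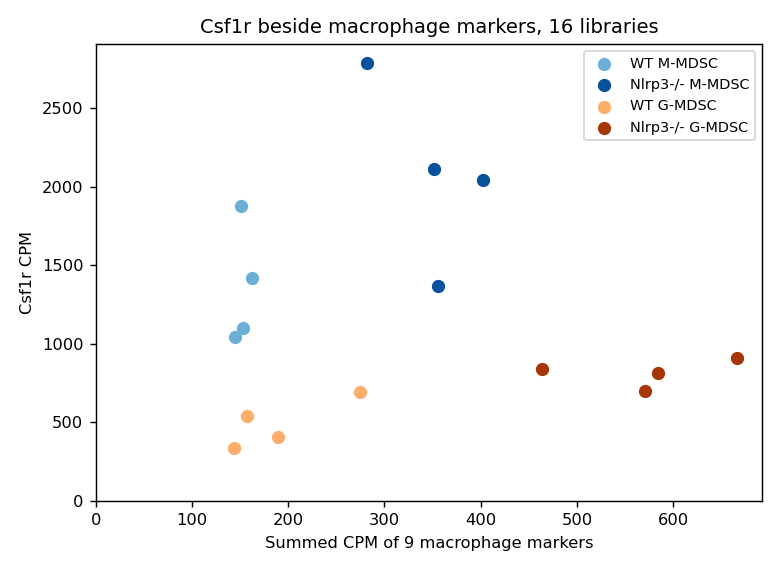
*Csf1r* CPM (vertical axis) against the summed CPM of 9 macrophage markers (horizontal axis) in the 16 libraries, 1 point each. Marker sums of Nlrp3-/- libraries start at 282 in M-MDSCs and 464 in G-MDSCs, beyond the WT libraries of the subset. WT replicate 1 and Nlrp3-/- replicate 4 of the G-MDSCs are highest of their group on both axes. Among Nlrp3-/- G-MDSCs, replicate 3 has the lowest sum and replicate 1 the lowest *Csf1r*. The Nlrp3-/- M-MDSC library highest in *Csf1r* (2787 CPM) has the lowest sum of its group.

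The GM-CSF receptor genes were higher in Nlrp3-/- by their means in both subsets, with 1 call. *Csf2ra*, on chromosome 19 (61223957 to 61228429, minus strand), was 111, 101, 162 and 128 CPM in WT M-MDSCs and 152, 212, 186 and 239.8 CPM in Nlrp3-/- M-MDSCs. In G-MDSCs it was 165, 163, 208 and 234 CPM in WT and 263, 195, 222 and 494 CPM in Nlrp3-/-. The genotypes overlapped in both subsets, in M-MDSCs through WT replicate 3 and Nlrp3-/- replicate 1 alone, and the mouse of Nlrp3-/- replicate 4 had the highest level of its genotype in both subsets. *Csf2ra* was called higher in Nlrp3-/- M-MDSCs, with a fold change of 1.60 (log2 0.68, SE 0.19, edgeR FDR = 0.0396), and was not called in G-MDSCs (log2 0.52, SE 0.25, edgeR FDR = 0.173). The G-MDSC estimate was 0.16 without Nlrp3-/- replicate 4 (edgeR FDR = 0.626), 0.095 with the GC content and length correction (edgeR FDR = 0.852) and 0.026 with that correction and the replicate block (edgeR FDR = 0.958). The M-MDSC call was lost with the replicate number as a block (edgeR FDR = 0.0878), in a model of all 16 libraries (edgeR FDR = 0.0938) and with the GC content and length correction (log2 fold change 0.32, edgeR FDR = 0.287). It was also lost without WT replicate 2, the M-MDSC library with the highest neutrophil sum (0.60, edgeR FDR = 0.115), and without any 1 of WT replicates 1 and 4 or Nlrp3-/- replicates 2, 3 and 4 (edgeR FDR 0.0566 to 0.155).

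Eosinophils carry the GM-CSF, IL-3 and IL-5 receptors, and the summed CPM of their markers was higher in Nlrp3-/- by its mean in both subsets. The sum of 5 such markers was 3.38 to 28.3 CPM for WT and 23.7 to 68.3 CPM for Nlrp3-/- libraries of M-MDSCs, which overlapped, and 25.0 to 49.7 CPM and 55.6 to 60.5 CPM for those of G-MDSCs, which did not. Of the 2 tested in each subset, 1 was called higher, in Nlrp3-/- M-MDSCs. *Ccr3* was the largest part of the sum in Nlrp3-/- M-MDSCs (64.2%) and Nlrp3-/- G-MDSCs (48.3%). In WT the largest part was *Prg2* in M-MDSCs (44.6%) and *Siglecf* in G-MDSCs (52.0%). *Epx*, which encodes eosinophil peroxidase, had at most 5 counts in a library and was lower in Nlrp3-/- by its mean in both subsets. *Il5ra*, the IL-5 receptor alpha chain, was also lower in Nlrp3-/- by its mean in both subsets, with at most 15 counts in a library. Its means were 1.41 CPM in WT and 0.94 CPM in Nlrp3-/- M-MDSCs, and 3.45 CPM in WT and 1.40 CPM in Nlrp3-/- G-MDSCs. It was not called in G-MDSCs (log2 fold change -1.31, SE 0.74, edgeR FDR = 0.240). The part of the eosinophil markers in the receptor levels was not tested.

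*Csf2rb*, the common beta chain shared by the GM-CSF, IL-3 and IL-5 receptors, lies on chromosome 15 (78325752 to 78353847, plus strand). It was 468, 282, 358 and 295 CPM in WT and 361, 472, 575 and 487 CPM in Nlrp3-/- M-MDSCs. In G-MDSCs it was 966, 402, 1037 and 747 CPM in WT and 956, 1203, 1288 and 1760.2 CPM in Nlrp3-/-. The genotypes overlapped in both subsets, and WT replicate 2 was the lowest WT library in each. The log2 fold changes of 0.45 (SE 0.19, edgeR FDR = 0.139) in M-MDSCs and 0.64 (SE 0.26, edgeR FDR = 0.0995) in G-MDSCs did not pass, although the latter did without the filter on low counts (0.64, edgeR FDR = 0.0320) and without WT replicate 3 (0.82, edgeR FDR = 0.0491), and the former did without WT replicate 1 (0.64, edgeR FDR = 0.0492).

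*Csf2rb2*, the IL-3-specific beta chain, is the neighbor of *Csf2rb* on the same chromosome (78282507 to 78305721, minus strand), with 20030 bases between them. It was 19.7, 16.7, 26.2 and 26.7 CPM in WT and 28.2, 29.3, 26.5 and 32.3 CPM in Nlrp3-/- M-MDSCs. In G-MDSCs it was 31, 26, 49.1 and 35.8 CPM in WT and 44.5, 32.1, 37.4 and 37.5 CPM in Nlrp3-/-. In M-MDSCs the genotypes met only between WT replicate 4 and Nlrp3-/- replicate 3, and the log2 fold change was 0.42 (SE 0.20, edgeR FDR = 0.180), whereas in G-MDSCs it was 0.00 (SE 0.22, edgeR FDR = 0.995). The beta chain genes resemble each other in sequence. Among 926 windows of 75 bases in the last 1000 bases of the longest *Csf2rb* transcript, 0 were identical to a *Csf2rb2* transcript and 9.50% came within 3 mismatches. The median of the fewest mismatches was 12. Whether reads were shared between the genes in the mapping was not tested.

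*Il3ra*, the IL-3 alpha chain on chromosome 14 (14346275 to 14356011, plus strand), was 22.3, 8, 16 and 18.5 CPM in WT and 17.6, 24.2, 35.7 and 18.5 CPM in Nlrp3-/- M-MDSCs. In G-MDSCs it was 4.67, 0.338, 1.45 and 0 CPM in WT and 2.31, 7.15, 4.55 and 5.76 CPM in Nlrp3-/-. The genotypes overlapped in both subsets, and the WT G-MDSC libraries held 0 to 14 counts. Its log2 fold changes were 0.59 (SE 0.31, edgeR FDR = 0.228) in M-MDSCs and 1.499 (SE 0.77, edgeR FDR = 0.192) in G-MDSCs, the latter passing without WT replicate 1 (2.73, edgeR FDR = 0.0413). The M-MDSC estimate was 0.21 with the GC content and length correction (edgeR FDR = 0.698).

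*Csf3r*, the G-CSF receptor gene on chromosome 4 (126024550 to 126044440, plus strand), was the member that set G-MDSCs apart most, and it showed no genotype difference. In M-MDSCs its levels were 16.1, 31.2, 41 and 33.5 CPM in WT and 39.7, 22.3, 17.5 and 33.6 CPM in Nlrp3-/-. In G-MDSCs they were 562, 1062, 1446 and 1378 CPM in WT and 1553, 1255, 999.6 and 997 CPM in Nlrp3-/-. All 8 G-MDSC libraries lay above all 8 M-MDSC libraries, by 29.7 to 57.1 times within a mouse, and WT M-MDSC replicate 2, in spite of its neutrophil sum, held no more *Csf3r* than WT replicates 3 and 4. Nlrp3-/- differed from WT by a log2 fold change of -0.06 (SE 0.32, edgeR FDR = 0.928) in M-MDSCs and of 0.02 (SE 0.26, edgeR FDR = 0.965) in G-MDSCs, with signs that changed between settings.

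*Flt3*, the FLT3 ligand receptor gene on chromosome 5 (147330741 to 147400489, minus strand), was nearly confined to M-MDSCs and varied widely from mouse to mouse. It was 4.82, 33.4, 13.5 and 17.8 CPM in WT and 33.1, 11.7, 3.96 and 22.7 CPM in Nlrp3-/- M-MDSCs, a range of 6.93 and 8.35 times within a genotype. In WT G-MDSCs it was 0 to 1.00 CPM (0 to 3 counts) and in Nlrp3-/- G-MDSCs 0.262 to 2.71 CPM (1 to 11 counts), at or near the floor of 3 counts. The genotypes overlapped almost fully in M-MDSCs (log2 fold change 0.10, SE 0.60, edgeR FDR = 0.935), and *Flt3* was too low in G-MDSCs to be tested between genotypes. In every mouse the M-MDSCs held more *Flt3* than the G-MDSCs, by 3.83 to 86.7 times in the 7 mice with a count in both. The sum of 9 dendritic cell markers was 81.1 to 133 CPM in WT and 131 to 148 CPM in Nlrp3-/- M-MDSCs, lowest in WT replicate 1 and highest among WT in replicate 2, as *Flt3* was, but without that order in Nlrp3-/- libraries. In G-MDSCs, where *Flt3* was nearly absent, this sum was higher, at 213 to 268 CPM in WT and 267 to 313 CPM in Nlrp3-/-. *Itgax* made up 71.2% and 81.8% of it there. The sum of 6 stem and progenitor cell markers was 1.38 to 18.9 CPM over all 16 libraries, and the part of either list in the *Flt3* level was not tested.

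*Kit*, the stem cell factor receptor gene on chromosome 5 (75574916 to 75656722, plus strand), was close to the limit of the data in all groups and did not pass the filter on low counts, so edgeR's fits left it out except where no filter was used. It held 1 to 9 counts in WT and 0 to 3 counts in Nlrp3-/- M-MDSCs (0.371, 1.26, 0.178 and 0.342 CPM in WT and 0.116, 0.511, 0 and 0 CPM in Nlrp3-/-). In G-MDSCs it was 3.67, 3.38, 3.15 and 2.33 CPM in WT (6 to 13 counts) and 1.85, 0.74, 1.45 and 1.05 CPM in Nlrp3-/- (3 to 8 counts). The 4 WT G-MDSC libraries thus lay above the 4 Nlrp3-/- libraries (two-sided exact permutation test, p = 0.0286, the smallest that 4 against 4 allows and without adjustment over genes), a pattern shown by 12.3% of the 9273 genes tested in G-MDSCs. Those genes passed the filter on low counts and do not include *Kit*, so that share is not one for genes with counts this low. On the scaled levels every G-MDSC library lay above the M-MDSC library of its mouse. In Nlrp3-/- replicate 2, however, both libraries held 3 counts. By library total alone these are 0.683 CPM in M-MDSCs and 0.565 CPM in G-MDSCs, so the order in that mouse depended on the scaling. The sum of 9 markers of mast cells, which carry much KIT, and basophils was 2165 to 4272 CPM in G-MDSCs, of which *Hdc*, which neutrophils also express, made up 99.8%. *Cpa3* and *Mcpt8*, proteases of mast cells and basophils, were low and in the range of *Kit*, with at most 3.14 CPM each (12 counts) in a G-MDSC library, *Tpsb2* was at 0 in all libraries, and the part of such cells in the *Kit* level was not tested.

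Between genotypes, 1 of the 7 members tested in M-MDSCs was called, *Csf2ra*, against 10.6% of all 9986 genes tested, or 3.51% called higher, where a call is an FDR under 0.05 with a fold change above 1.5. In G-MDSCs 1 of 6 was called, *Csf1r*, against 16.4% of 9273 genes, or 4.70% called higher. Neither count stands out from that background. By their estimates, 6 of 7 members were higher in Nlrp3-/- M-MDSCs and 6 of 6 in Nlrp3-/- G-MDSCs, against 55.0% and 51.9% of all genes, although 2 of the latter were close to 0 (*Csf2rb2* and *Csf3r*) and turned negative with the GC content and length correction (-0.077 and -0.19). The members' median log2 fold change was 0.45 and 0.58 against 0.07 and 0.03 for all genes. At an unadjusted p under 0.05 there were 3 and 2 members, against 30.1% and 32.3% of all genes. Libraries without overlap, Nlrp3-/- above WT, were found for 0 of 7 members in M-MDSCs, where 7.59% of all genes did so, and for 1 of 6 in G-MDSCs, where 12.0% did. Those with Nlrp3-/- below WT were found for 0 tested members, against 11.7% and 12.3% of all genes. The genotype effect differed between the subsets for 0 of 7 members (0.0280% of 10696 genes), 0 also at an unadjusted p under 0.05 and 0 with DESeq2, and the smallest edgeR FDR was 0.992.

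**Figure D3:**
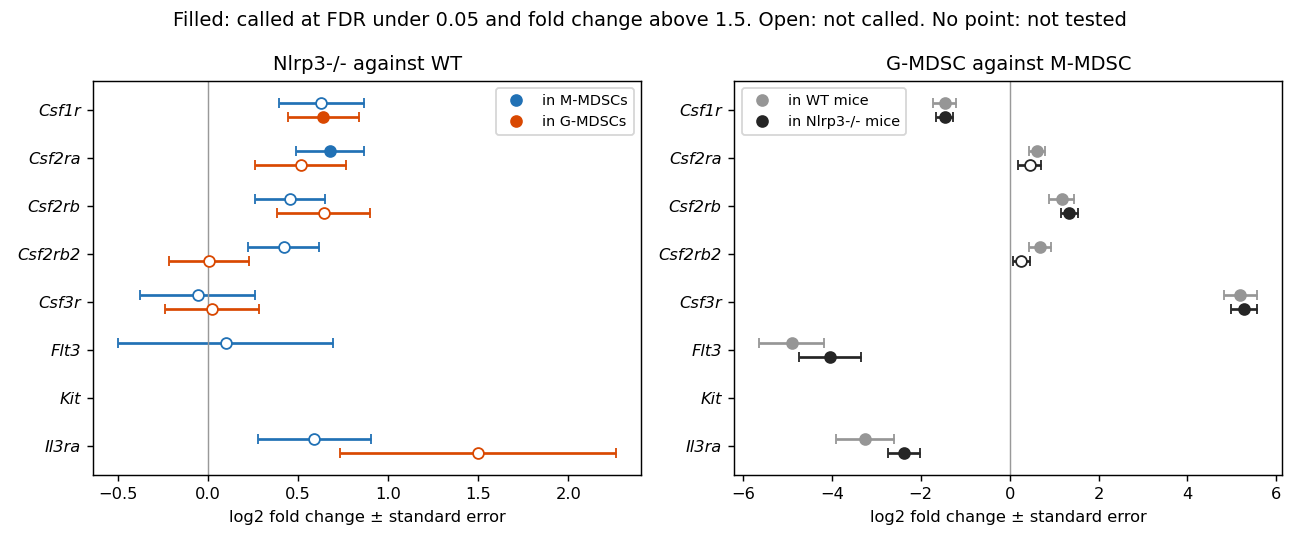
Log2 fold changes with their standard errors from edgeR, for Nlrp3-/- against WT (left, M-MDSCs in blue and G-MDSCs in orange) and for G-MDSC against M-MDSC (right, WT in gray and Nlrp3-/- in black), with filled points for calls. The left panel has 1 call in each subset, *Csf2ra* and *Csf1r*, with estimates of 0.68 and 0.64, and the right panel has 7 calls in WT and 5 in Nlrp3-/- mice that span -4.90 to 5.27.

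The subsets differed far more than the genotypes. In WT mice all 7 tested members were called between G-MDSCs and M-MDSCs, 4 of them higher in G-MDSCs, against 53.3% of all 9739 genes called and 26.3% called higher. In Nlrp3-/- mice 5 of 7 were called, 2 of them higher, against 51.0% of 10071 genes called and 23.7% called higher. *Csf3r* had log2 fold changes of 5.19 (SE 0.37, edgeR FDR = 3.72e-07) in WT and 5.27 (SE 0.30, edgeR FDR = 4.6e-09) in Nlrp3-/- mice. *Csf2rb* followed with 1.17 (SE 0.28, edgeR FDR = 0.00333) and 1.34 (SE 0.19, edgeR FDR = 4.88e-05), and on the scaled levels it was higher in the G-MDSCs of 8 of 8 mice. Lower in G-MDSCs were *Flt3* with -4.90 (SE 0.73, edgeR FDR = 0.00012) and -4.05 (SE 0.70, edgeR FDR = 0.00023), *Il3ra* with -3.26 (SE 0.65, edgeR FDR = 0.00111) and -2.38 (SE 0.36, edgeR FDR = 7.48e-05), and *Csf1r* with -1.46 (SE 0.26, edgeR FDR = 0.000476) and -1.46 (SE 0.19, edgeR FDR = 1.89e-05). For *Csf1r* that was 1.96 to 3.32 times more in the M-MDSCs of a mouse than in its G-MDSCs, in 8 of 8 mice.

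Among the tested members, the 2 smallest subset differences depended on the scaling. *Csf2ra* was higher in G-MDSCs by 0.62 (SE 0.19, edgeR FDR = 0.0141) in WT and by 0.45 (SE 0.26, edgeR FDR = 0.151) in Nlrp3-/- mice, and *Csf2rb2* by 0.68 (SE 0.24, edgeR FDR = 0.0285) and 0.26 (SE 0.20, edgeR FDR = 0.276), but with library size as the only scaling *Csf2ra* was -0.13 and -0.28 and *Csf2rb2* -0.07 and -0.45. That scaling moves the median log2 fold change of all genes from -0.05 to -0.79 in WT and from -0.12 to -0.83 in Nlrp3-/- mice, and upper-quartile scaling moves it to -0.27 and -0.28. *Csf2rb* in WT kept its direction with 0.42 and lost its call under library size alone (edgeR FDR = 0.197). By library total alone, the mouse of WT replicate 2 had more *Csf2rb* in M-MDSCs (2010 of 5933395 counts) than in G-MDSCs (1191 of 4097156 counts). Without WT M-MDSC replicate 2, *Csf2ra* and *Csf2rb2* were no longer called in WT mice (0.47, edgeR FDR = 0.0691, and 0.50, edgeR FDR = 0.113). The *Csf2ra* call was also lost without WT M-MDSC replicates 1 or 4 or WT G-MDSC replicate 4 (0.52 to 0.57, edgeR FDR 0.0454 to 0.0553, the last of them through a fold change under 1.5), and that of *Csf2rb2* without WT M-MDSC replicate 1 or WT G-MDSC replicates 3 or 4 (0.49 to 0.69, edgeR FDR 0.0511 to 0.0987).

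In the order of group means, *Csf1r* ran from Nlrp3-/- M-MDSCs (2078 CPM ± 579) over WT M-MDSCs (1360.1 ± 383) and Nlrp3-/- G-MDSCs (816 ± 87) to WT G-MDSCs (494 ± 156, SD, n = 4 each), and only the ranges of the 2 M-MDSC groups overlapped. *Csf2rb* ran the other way by subset, from Nlrp3-/- G-MDSCs (1302 ± 336) and WT G-MDSCs (788 ± 285) to Nlrp3-/- M-MDSCs (474 ± 88) and WT M-MDSCs (351 ± 85), and each neighboring pair overlapped. *Csf3r* fell into G-MDSCs (1201 ± 264 in Nlrp3-/- and 1112 ± 403 in WT) and M-MDSCs (30.4 ± 10.4 in WT and 28.3 ± 10.2 in Nlrp3-/-), with overlap inside each subset only. For *Csf2ra* the means ran from 294 ± 136 in Nlrp3-/- G-MDSCs over 197 ± 37 in Nlrp3-/- M-MDSCs and 192 ± 35 in WT G-MDSCs to 125 ± 27 in WT M-MDSCs, the last of which did not overlap the group before it.

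The genes whose centered log2 CPM ran closest to each member over the 16 libraries were sought among 10696 genes. Nearest to *Csf1r* (root mean square difference 0.20 on the log2 scale for each, against its own spread of 0.84) were *Txn2*, mitochondrial thioredoxin, and *Rps19*, a ribosomal protein gene. Nearest to *Csf2rb* (0.18 to 0.23, spread 0.80) were *Pkm*, pyruvate kinase, *Lst1* and *Zfand2b*. *Csf3r* (0.34 to 0.42, spread 2.69) was nearest to *Ifnlr1*, a chain of the interferon lambda receptor, *Slfn4* and *Tspan2*, of which *Slfn4* averaged 24.2 CPM in WT M-MDSCs and 987 CPM in WT G-MDSCs. *Flt3* (0.74 to 0.80, spread 2.08) was nearest to *Ctsc*, cathepsin C, *Pvrl1* and *Plac8*, and *Il3ra* (0.44 to 0.68, spread 1.81) to *Gm5431*, *Spr* and *Selm*. *Csf2ra* (0.27 to 0.29, spread 0.52) was nearest to *Scamp1*, *Ccnk* and *Tmem50a*, and *Csf2rb2* (0.19 to 0.22, spread 0.38) to *Ss18*, *Rtn4* and *Cdc42*. The libraries share mice and subsets, so this likeness is a description.

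Around the receptors, 86 genes of ligands, partner chains, kinases, adaptors, STATs, inhibitors, target genes and transcription factors were counted. Of these, 74 were tested in M-MDSCs, where 1 was called higher and 6 lower in Nlrp3-/-, and 75 in G-MDSCs, where 3 were called higher and 9 lower, with median log2 fold changes of 0.02 and 0.01. Over all genes tested, 10.6% were called in M-MDSCs (351 higher and 709 lower) and 16.4% in G-MDSCs (436 higher and 1086 lower), so lower calls led there too. Between subsets, 40 were called higher and 9 lower in G-MDSCs, in WT (75 tested) as in Nlrp3-/- mice (73 tested). Of all genes, 53.3% were called in WT and 51.0% in Nlrp3-/- mice, with 26.3% and 23.7% called higher in G-MDSCs. Among the 8 ligand genes only *Csf1* and *Flt3l* were tested. *Csf1*, which encodes M-CSF, was 2.53 CPM ± 1.48 in WT and 2.40 CPM ± 1.41 in Nlrp3-/- M-MDSCs against 254 CPM ± 133 in WT and 229 CPM ± 124 in Nlrp3-/- G-MDSCs (SD, n = 4), so that the ligand gene was higher in G-MDSCs (log2 6.69, SE 0.48, edgeR FDR = 3.77e-07 in WT) and its receptor gene in M-MDSCs. *Il34* and *Il5* had 0 counts in all libraries, and *Csf2*, *Csf3* and *Il3* had at most 1 count in a library.

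*Cbl*, a ubiquitin ligase that drives the breakdown of activated CSF1R, KIT and FLT3, had the smallest p of these genes in both subsets. It was 164 CPM ± 7 in WT and 79.5 CPM ± 19.2 in Nlrp3-/- M-MDSCs, and 189 CPM ± 29 in WT and 86.4 CPM ± 10.5 in Nlrp3-/- G-MDSCs (SD, n = 4), without overlap of the genotypes in either subset. Its log2 fold change was -1.02 (SE 0.17, edgeR FDR = 0.00477) in M-MDSCs and -1.21 (SE 0.17, edgeR FDR = 0.000274) in G-MDSCs, from the same mice. The call held in each fit without 1 library and was lost in both subsets only with the replicate block and the GC content and length correction together (-0.66, edgeR FDR = 0.0881, and -0.74, edgeR FDR = 0.0662). *Ptpn11*, the phosphatase SHP2, fell by 0.88 (SE 0.18, edgeR FDR = 0.0103) in M-MDSCs and by 0.93 (SE 0.21, edgeR FDR = 0.00788) in G-MDSCs, and lost its call in both with block and correction together (edgeR FDR = 0.0690 and 0.0960), as did *Sos1* in M-MDSCs (edgeR FDR = 0.0836). *Adam10*, a protease that sheds surface proteins, fell by 1.02 (SE 0.26, edgeR FDR = 0.0287) and 1.03 (SE 0.23, edgeR FDR = 0.00713).

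In M-MDSCs the other named genes were *Sos1*, an exchange factor for RAS, at -1.35 (SE 0.24, edgeR FDR = 0.0067), *Klf4*, a transcription factor of monocytes, at -0.85 (SE 0.17, edgeR FDR = 0.0105), and *Dok1*, an inhibitory adaptor, which alone was higher, at 0.84 (SE 0.21, edgeR FDR = 0.0258). In G-MDSCs they were *Il6ra*, the IL-6 receptor alpha chain, at -0.94 (SE 0.19, edgeR FDR = 0.00341), *Pik3r1*, a regulatory subunit of PI3 kinase, at -0.83 (SE 0.17, edgeR FDR = 0.00438), and *Runx1*, a transcription factor of myeloid genes, at -0.89 (SE 0.20, edgeR FDR = 0.00821). The GC content and length correction alone ended the calls of *Dok1* (0.46, edgeR FDR = 0.131) and *Adam10* (-0.76, edgeR FDR = 0.0857) in M-MDSCs and of *Pik3r1* (-0.42, edgeR FDR = 0.143), *Adam10* (-0.69, edgeR FDR = 0.0673) and *Runx1* (-0.59, edgeR FDR = 0.0692) in G-MDSCs. In M-MDSCs *Dok1* was lost in 6 of the 8 fits without 1 library (all but WT replicate 1 and Nlrp3-/- replicate 1, edgeR FDR 0.0518 to 0.0973) and *Adam10* in 5 (WT replicates 1, 2 and 4 and Nlrp3-/- replicates 3 and 4, edgeR FDR 0.0596 to 0.0867). *Spi1*, which encodes PU.1, was not called between genotypes (0.34, SE 0.24, edgeR FDR = 0.369 in M-MDSCs and -0.10, SE 0.22, edgeR FDR = 0.791 in G-MDSCs).

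**Figure D4:**
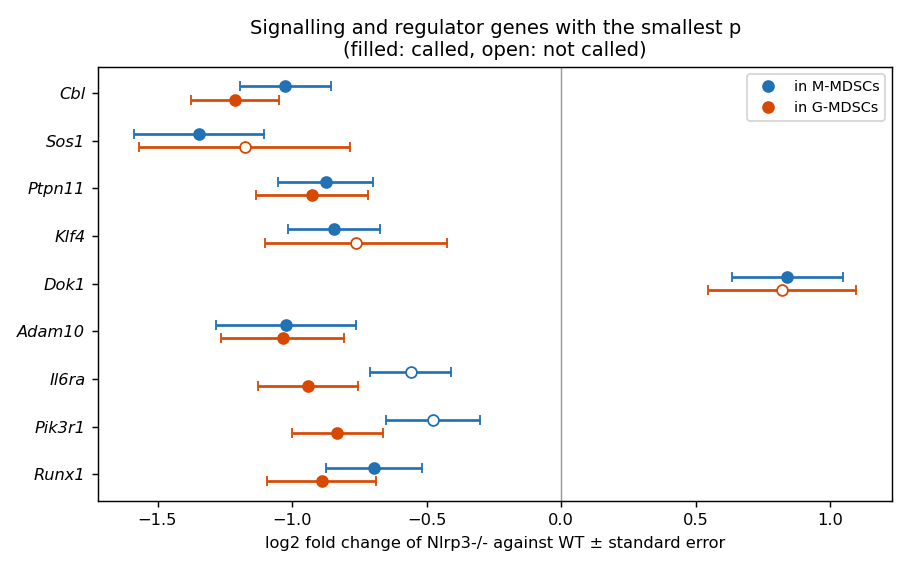
Log2 fold changes of Nlrp3-/- against WT (horizontal axis, with standard errors) in M-MDSCs (blue) and G-MDSCs (orange) for the 9 signaling genes with the smallest p among the called genes of either subset, with filled points for calls. *Cbl* lies at -1.02 and -1.21, and *Dok1* is the one of these to the right of 0, at 0.84 and 0.82.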

How the data were processed

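mRNA of sorted splenic M-MDSCs and G-MDSCs was read by QuantSeq 3′ sequencing (75 bases, single-end), which primes on the poly(A) tail, so counts do not grow with transcript length. The authors used 15 or 17 amplification cycles, mapped reads to mm10 with HISAT2 2.1.0 and counted them with HTSeq (processing notes), and deposited raw counts per gene symbol without normalization. The day of the sort is not given for these samples. Counts were analysed as deposited with R 4.3.3, edgeR 4.0.16, limma 3.58.1 and DESeq2 1.42.0, and figures were drawn with Python 3.11. After filterByExpr and TMM scaling, the test was edgeR's quasi-likelihood F-test, with Benjamini-Hochberg adjustment over all genes tested. SE is the log2 fold change divided by the square root of F. Log2 CPM had a prior count of 2, and permutation tests were exact and two-sided. The test was checked on simulated counts with 200 changed genes. Genes were placed with GENCODE M21, where 23376 symbols matched a transcript directly, 678 by an older symbol and 367 not.

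The members, gene lists and tests were chosen with earlier results of these data known. Named genes are the 8 members, the 3 genes most like each (1 of these is not reported here), and the 6 called pathway genes with the smallest p in each genotype comparison. *Csf1*, *Flt3l*, *Il5ra*, *C1qa*, *Mertk*, *Gzma*, *Tpsb2*, *Cpa3*, *Mcpt8*, *Epx*, *Ccr3*, *Prg2*, *Siglecf*, *Itgax*, *Hdc* and *Spi1* were named after their values were seen, as were the comments on single libraries. Same-numbered M-MDSC and G-MDSC libraries come from the same mouse, and their deviations from the group means correlated by 0.0971 to 0.397 in WT and 0.00821 to 0.382 in Nlrp3-/- (10696 genes). The alternatives changed the tool (DESeq2), the scaling (size factors of DESeq2, upper quartile, or the library size alone), the filter (none, or a minimum of 10 counts in each of the libraries), the fold change minimum (none) and the model (the mouse or replicate number as a block, splines of GC content and length with 4 degrees of freedom, the 2 together, or 1 fit to the 16 libraries), and left out each library in turn. Limits from counts cover counting error only, since amplified reads are not independent molecules.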

Additional observations from a re-analysis of the deposited data

How the results depend on the processing

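Of the members called between genotypes, *Csf2ra* in M-MDSCs and *Csf1r* in G-MDSCs, neither held in every setting. The count of members called in M-MDSCs was 0 with the replicate block (replicate numbers there mark different mice, whose deviations correlated by -0.452 to 0.0177 in M-MDSCs and -0.263 to -0.0438 in G-MDSCs), 0 with the GC content and length correction, 0 with both and 0 in the model of all 16 samples, and 0 to 2 without 1 library. In G-MDSCs it was 0 with the block, 0 with the correction, 0 with both, 2 without a filter and 0 to 2 without 1 library. Between subsets in WT mice it was 4 of 7 with library size only, 3 of the 5 still tested with at least 10 counts in every sample, and 5 to 7 without 1 library, while in Nlrp3-/- mice it was 4 or 5 throughout. The mouse as a block changed no member's call between subsets. Signs turned for estimates near 0: *Csf3r* in M-MDSCs was 0.037 with library size only, *Flt3* in M-MDSCs -0.086 with the block and -0.15 with block and correction, *Csf2rb2* in G-MDSCs -0.0046 with at least 10 counts, -0.077 with the correction and -0.048 with both, and *Csf3r* in G-MDSCs -0.19 with the correction and -0.14 with both. Between subsets with library size only, *Csf2ra* was -0.13 in WT and -0.28 in Nlrp3-/- mice and *Csf2rb2* -0.067 and -0.45. Without 1 library, *Csf3r* ran from -0.32 to 0.12 and *Flt3* from -0.45 to 0.68 in M-MDSCs, and *Csf2rb2* from -0.11 to 0.23 and *Csf3r* from -0.20 to 0.20 in G-MDSCs. Over all genes, 1060 were called in M-MDSCs, 425 with the block, 663 with the correction, 86 with both and 450 to 1783 without 1 library, and 1522 in G-MDSCs, 985 with the block, 953 with the correction and 455 with both. The interaction called 3 genes, 8 with DESeq2 and 5 without a filter. The share of calls lower in Nlrp3-/- was 66.9% in M-MDSCs, 45.4% with library size only and 84.2% with the block, and 71.4% in G-MDSCs, 51.9% with library size only, 60.9% with upper-quartile scaling and 56.6% with all 16 samples. The share lower in G-MDSCs was 50.8% in WT mice, 81.3% with library size only and 61.8% with upper-quartile scaling, and 53.6% in Nlrp3-/- mice, 81.5% with library size only. The cause of these shifts was not tested. Counts were low for *Kit* in all groups, and for *Flt3* and *Il3ra* in G-MDSCs.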

Other observations

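Within the M-MDSCs, some receptor genes ran against each other from mouse to mouse. In both genotypes the library with the highest *Csf1r* also had the highest *Il3ra* and the lowest *Flt3* and *Csf3r*. In WT mice this was replicate 1, with 1879.5 CPM of *Csf1r*, 22.3 CPM of *Il3ra*, 4.82 CPM of *Flt3* and 16.1 CPM of *Csf3r*. In Nlrp3-/- mice it was replicate 3, with 2787, 35.7, 3.96 and 17.5 CPM of the same genes. The library with the lowest *Csf1r*, WT replicate 2 with 1044 CPM and Nlrp3-/- replicate 1 with 1369.6 CPM, had the highest *Flt3* of its genotype, 33.4 and 33.1 CPM. These orders were picked after the values were seen and rest on 4 mice a genotype, so no test was made.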
